A study of Mus musculus with 4 samples.

Results

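The transcripts of 10 proteins of the Z-disc, the structure that bounds each sarcomere, were followed in fractions of mouse skeletal muscle. They were chosen by gene symbol (Actn2, Actn3, Ldb3, Myoz1, Myoz2, Myoz3, Tcap, Myot, Csrp3 and Des) and are 10 of the 16472 genes of the deposited table. The symbols were picked for the place of the proteins in the sarcomere, not by a cutoff on a measured value. Earlier results of these data were known when they were picked. The study asked which RNAs lie in mitochondria of muscle and sequenced RNA of isolated mitochondria beside RNA of the rest of the tissue. All 4 libraries came from skeletal muscle of wild-type (WT) mice with no other treatment stated, and 2 belonged to each group. Age, sex and the muscle used are not given in the sources used here. Nothing states that libraries of a group came from separate animals, so p-values measure only the spread between these libraries, which may be technical. The comparison group is labelled as tissue minus mitochondria, its titles say total, and a legend of the study speaks of total lysate, so that whole or depleted muscle cannot be told apart here. It is called remaining tissue below. Fragmentation time was adjusted for mitochondrial libraries, which coincides with the groups. The methods describe treatment of heart mitochondria with digitonin and RNase A before RNA extraction, and whether muscle mitochondria were treated in this way is not stated.

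In the Z-disc, rods of alpha-actinin cross-link the barbed ends of actin filaments from neighbouring sarcomeres, and titin and nebulin are anchored there. PDZ-LIM proteins, myozenins, myotilin, telethonin and muscle LIM protein dock on this lattice, and desmin filaments tie neighbouring Z-discs to each other, to the sarcolemma and to organelles, mitochondria included. All of these proteins are encoded in the nucleus and translated in the cytoplasm, so their mRNAs are measured in a mitochondrial preparation as nuclear transcripts that came with it. In bulk RNA, fewer cells of a type and less RNA per cell cannot be told apart.

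Several members have close relatives, and comparisons between relatives below rest on reads of up to 75 nt that tell them apart. For the alpha-actinins and the LIM proteins Csrp3 and Csrp1, the stretch of 75 coding bases in which each pair was most alike is shown for this reason, read 5′ to 3′ on the coding strand from GENCODE M21 (GRCm38), with capitals at the bases that differ within the pair. Actn2 and Actn3 shared 69 of 75 bases, with 6 different and a longest identical run of 26. The window of Actn2 lay in exon 4 (chr13:12308900-12308968) and exon 5 (chr13:12306356-12306361) on the minus strand. The window of Actn3 lay in exon 4 (chr19:4871771-4871839) and exon 5 (chr19:4871679-4871684), also on the minus strand.
Actn2: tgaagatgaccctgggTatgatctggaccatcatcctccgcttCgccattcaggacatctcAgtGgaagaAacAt
Actn3: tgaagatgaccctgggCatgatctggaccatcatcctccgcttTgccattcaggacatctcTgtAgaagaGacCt
Csrp3 and Csrp1 shared 62 of 75 bases, with 13 different and a longest identical run of 14. The window of Csrp3 lay in exon 5 (chr7:48832562-48832592) and exon 6 (chr7:48830663-48830706) on the minus strand, and that of Csrp1 in exon 5 (chr1:135750628-135750658) and exon 6 (chr1:135751044-135751087) on the plus strand.
Csrp3: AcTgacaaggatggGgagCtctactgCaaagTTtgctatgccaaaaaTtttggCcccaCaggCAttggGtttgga
Csrp1: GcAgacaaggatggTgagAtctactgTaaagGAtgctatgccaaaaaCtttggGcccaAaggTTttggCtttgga
Even where these paralogues were most alike, at least 6 bases of a full read of 75 nt differed, and no identical run reached that length. Reads shortened by trimming were also kept and can differ at fewer bases. Other relatives compared below were not set side by side in this way.

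Deposited values were normalized counts, that is gene counts divided by a size factor of each library. Assigned reads recovered from these values numbered 42749263 and 35306106 in isolated mitochondria replicates 1 and 2, of which 100924 and 181152 came from nuclear genes other than nuclear copies of mitochondrial genes. Remaining tissue had an estimated 15704036 and 15301865 reads, with 11989623 and 11968682 from such nuclear genes. A single read was worth 9.049 and 5.059 normalized counts in isolated mitochondria, so that low values there stand for a handful of reads. All 6 myofibre markers (Acta1, Ckm, Myh4, Mylpf, Tnnt3 and Mb) were detected in every library, with summed levels of 205135 and 217158 normalized counts in remaining tissue, against 36232 and 34548 in isolated mitochondria.

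Transcripts of the Z-disc lattice were lower in isolated mitochondria than in remaining tissue for alpha-actinin of both kinds, the PDZ-LIM protein Ldb3, myozenin 1 and desmin, and the genes differed widely in how much was left. Of the 10 members, 5 passed the test as lower (Actn3, Ldb3, Actn2, Myoz1 and Des), 0 passed it as higher (0 also by edgeR and by DESeq2) and 5 did not pass it (limma with Benjamini-Hochberg adjustment over 6916 genes, threshold 0.05). At an unadjusted p under 0.05, 8 members were past the threshold, all of them lower. Of all 6916 genes tested, 2557 had an unadjusted p under 0.05 in either direction. At the adjusted threshold 9.30% of all genes tested were called lower and 7.32% higher. In 9 of 10 members both libraries of isolated mitochondria lay below both of remaining tissue, which held for 43.7% of all genes tested. The median log2 fold change was -1.44 over the members and -0.44 over all genes tested. Every member passed the filter on low values (a mean of at least 20 normalized counts).

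**Figure D1:**
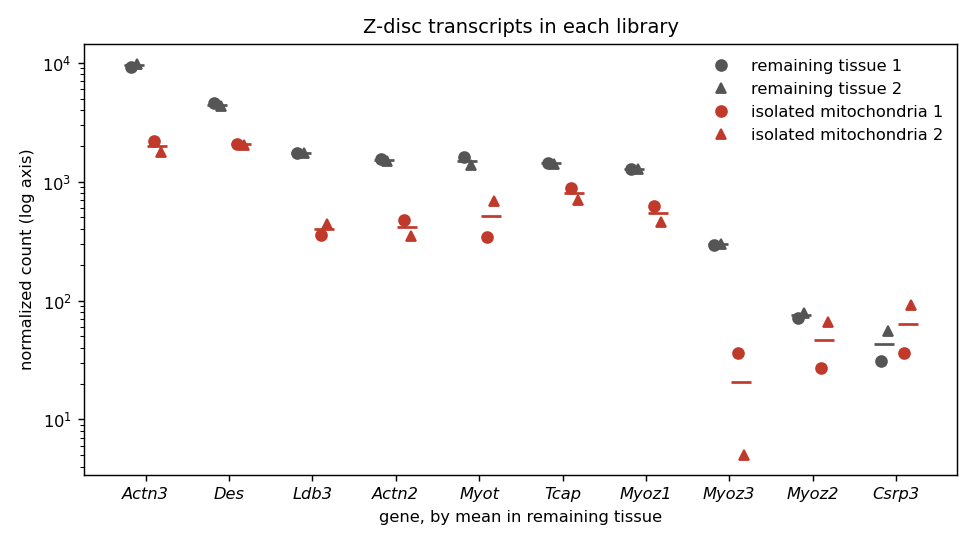
Normalized counts (log axis) of the 10 Z-disc transcripts in each of the 4 libraries, ordered by the mean in remaining tissue; grey marks stand for remaining tissue, red marks for isolated mitochondria, circles for replicate 1, triangles for replicate 2 and lines for the mean of 2 libraries. Red marks lie below grey marks for 9 of 10 genes, and the groups overlap for Csrp3.

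The size of these differences depends on the scaling of libraries, which shifts all genes alike and therefore leaves the place of the members among the other genes as it is. Scaling to the total of nuclear genes moved the median of all genes tested from -0.44 to 0.45. It left 2 members called lower (Actn3 and Ldb3), beside 2.76% of all genes tested. Scaling to all genes, of which mitochondrially encoded RNA is the largest part in isolated mitochondria, moved the median to -7.34. It left 10 members called lower, beside 96.7% of all genes tested. The median of the members lay 1.0 below that of all genes on the log2 scale (difference -1.0), and 9 of 10 members lay below the median of all genes. Higher calls made up 44.0% of all calls with the deposited scaling, 86.0% with nuclear scaling, 0.536% with scaling to all genes and 55.6% with the upper quartile. The 10 genes together held 1.29% of nuclear reads in both libraries of remaining tissue (95% Wilson intervals 1.28% to 1.29% and 1.28% to 1.30%). In isolated mitochondria they held 0.774% (0.722% to 0.83%) in replicate 1 and 0.723% (0.685% to 0.763%) in replicate 2. The summed share was therefore lower in both libraries of isolated mitochondria, by more than counting error. Intervals here account for counting alone, because PCR copies of a molecule cannot be recognised in these reads. For the summed share no test was run, as the smallest two-sided p of an exact permutation test with 2 libraries per group is 0.333.

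Actn3 encodes the alpha-actinin of fast glycolytic fibres and was the most abundant member per exon length in remaining tissue. It lies on chromosome 19 (4861216 to 4877909, minus strand) with 2901 nt of exons. Its level was 9295 and 9861 normalized counts in the libraries of remaining tissue and 2199 and 1776 in those of isolated mitochondria, from 243 and 351 reads. The mean fell from 9578 ± 400.0 to 1988 ± 299 (SD, n = 2 each), to 20.8% of its level in remaining tissue (log2 fold change -2.28, SE 0.19, adjusted p = 0.0114). Both values of isolated mitochondria were well below both of remaining tissue, and Actn3 was also called lower under every alternative tried.

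Actn2 encodes the alpha-actinin present in all skeletal fibres and in the heart. The gene, on chromosome 13 (12269426 to 12340760, minus strand), has 3795 nt of exons. Its counts were 1549 and 1485 in remaining tissue and 480 and 349 in isolated mitochondria, from 53 and 69 reads. The groups did not overlap, and the mean fell to 27.3% (log2 fold change -1.89, SE 0.22, adjusted p = 0.0197). With nuclear scaling the fold change of Actn2 was -0.99 and its adjusted p 0.0521. A stretch of at least 50 nt of its transcript was at least 95% identical to transcripts of 8 other genes, so reads from that stretch are uncertain. The ratio of Actn3 to Actn2, which no scaling of libraries can change, was 6.0 and 6.64 in remaining tissue and 4.58 and 5.09 in isolated mitochondria. Per kb of exon, Actn3 stood 8.26 times above Actn2 in remaining tissue and 6.27 times above it in isolated mitochondria. The fast alpha-actinin was thus in excess in every library, by a smaller factor in both libraries of isolated mitochondria. That difference between ratios was chosen after the values were seen and was not tested.

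Ldb3 encodes a PDZ-LIM protein (also called ZASP or Cypher) that binds alpha-actinin and is needed to keep the Z-disc together. It lies on chromosome 14 (34526603 to 34588682, minus strand), and its 6105 nt of exons are the longest of the 10. Counts were 1737 and 1757 in remaining tissue and 353 and 440 in isolated mitochondria, from 39 and 87 reads. They fell to 22.7% of the level in remaining tissue (log2 fold change -2.15, SE 0.19, adjusted p = 0.0123). Remaining tissue replicates differed little, isolated mitochondria were lower in both libraries, and Ldb3, like Actn3, was called lower under every alternative.

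The myozenins (calsarcins) bind alpha-actinin and calcineurin at the Z-disc, Myoz1 and Myoz3 mainly in fast fibres and Myoz2 in slow fibres and the heart. Myoz1 lies on chromosome 14 (20649107 to 20656540, minus strand). It had 1276 and 1275 normalized counts in remaining tissue, against 624 and 460 in isolated mitochondria, from 69 and 91 reads. It fell to 42.5% (log2 fold change -1.25, SE 0.22, adjusted p = 0.0363). The call on Myoz1 was lost without remaining tissue replicate 1 or replicate 2, where the log2 fold change stayed at -1.25. It was also lost with nuclear scaling (log2 fold change -0.35, adjusted p = 0.321), with the upper quartile (0.076) and with a filter at a mean of 5 (0.0574).

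Myoz3 (chromosome 18, 60573750 to 60591788, minus strand) had 291 and 302 normalized counts in remaining tissue, against 36 and 5 in isolated mitochondria. Those last values were 4 reads and 1 read. The mean of isolated mitochondria was 6.91% of that of remaining tissue, and the log2 fold change of -4.32 was the largest in size among the members, but with an SE of 0.94 it did not pass the threshold (adjusted p = 0.0531). It was -5.63 without isolated mitochondria replicate 1 and -3.01 without replicate 2, so its size rests on single libraries. Pooled over libraries, its share of nuclear reads was 9.84 times higher in remaining tissue, with an exact 95% interval of 4.21 to 30.3 for counting error. Myoz3 was called lower in 10 of 15 alternatives, among them edgeR (adjusted p = 0.00631), where 17.6% of all genes tested were called lower. Such tallies also count scaling to all genes, where 96.7% were called lower, and fits that left out a library. Stretches of at least 50 nt of the Myoz3 transcript were at least 95% identical to transcripts of 161 other genes, far more than for any other member, and since reads that align to several places were left out its level is uncertain.

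Myoz2 (chromosome 3, 123006206 to 123035015, minus strand) was low throughout, with 72 and 78 normalized counts in remaining tissue, against 27 and 66 in isolated mitochondria. Its values in isolated mitochondria stood for 3 and 13 reads. The groups lay apart by a small margin, the log2 fold change of -0.81 (SE 0.50) missed the threshold (adjusted p = 0.305), and its sign turned (0.09) with nuclear scaling. Myoz1 stood 30.8 times above Myoz2 per kb of exon in remaining tissue and 21.1 times in isolated mitochondria. By normalized count the ratio of Myoz1 to Myoz2 was 17.7 and 16.3 in remaining tissue and 23.1 and 6.97 in isolated mitochondria, so the groups overlapped and gave no direction. Myoz1 stood 7.81 times above Myoz3 per kb in remaining tissue and 48.0 times in isolated mitochondria, where the denominator rested on 5 reads. The 3 myozenins therefore kept Myoz1 as their main transcript in both groups.

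Tcap encodes telethonin, a small protein that joins the ends of neighbouring titin molecules in the Z-disc. It lies on chromosome 11 (98383811 to 98384953, plus strand) and, with 948 nt of exons, is the shortest member. Counts were 1446 and 1415 in remaining tissue and 887 and 708 in isolated mitochondria, from 98 and 140 reads. Values did not overlap, but the log2 fold change of -0.85 (SE 0.19) missed the threshold (adjusted p = 0.0567). Tcap was called lower in 6 of 15 alternatives, among them edgeR (adjusted p = 0.0384) and DESeq2 (9.71e-06). These tools called 17.6% and 19.2% of all genes tested lower. With nuclear scaling the log2 fold change of Tcap was 0.04. The Tcap share of nuclear reads pooled over libraries was 0.998 times as high in remaining tissue as in isolated mitochondria (exact 95% interval 0.878 to 1.14). Relative to Actn3, Tcap stood higher in both preparations of mitochondria. The ratio of Tcap to Actn3 was 0.156 and 0.143 in remaining tissue and 0.403 and 0.399 in isolated mitochondria. The ratio of Tcap to Ttn, the transcript of its titin partner, was 0.00515 and 0.00562 in remaining tissue and 0.0413 and 0.0469 in isolated mitochondria, a mean 8.19 times higher. Both ratios are free of scaling and were given after the values were seen, with no test.

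Myot encodes myotilin, an immunoglobulin-domain protein that cross-links actin filaments and binds alpha-actinin. It lies on chromosome 18 (44334074 to 44355724, plus strand). It had 1623 and 1392 normalized counts in remaining tissue, against 344 and 688 in isolated mitochondria, from 38 and 136 reads. Replicates of isolated mitochondria differed more than for the alpha-actinins, and the log2 fold change of -1.63 (SE 0.39) did not pass the threshold (adjusted p = 0.0632). Myot passed in 8 of 15 alternatives, among them edgeR (adjusted p = 0.0265), where 17.6% of all genes tested were called lower. Its log2 fold change was -1.13 without isolated mitochondria replicate 1 and -2.12 without isolated mitochondria replicate 2.

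Csrp3, the gene of muscle LIM protein, a factor of stretch response that is abundant in slow fibres and the heart, was the one member whose groups overlapped with the deposited scaling. The gene is on chromosome 7 (48830398 to 48848033, minus strand). Its counts were 31 and 55 in remaining tissue and 36 and 91 in isolated mitochondria, the latter from 4 and 18 reads. The log2 fold change of 0.46 (SE 0.59, adjusted p = 0.594) was 0.90 above the median of all genes, turned to -0.19 without isolated mitochondria replicate 2 and to -6.44 when values were scaled to all genes. As a share of nuclear reads, Csrp3 was at 39.6 ppm in isolated mitochondria replicate 1 (95% Wilson interval 15.4 to 102), at 99.4 ppm in replicate 2 (62.9 to 157) and at 18.3 ppm (16.0 to 20.9) and 32.4 ppm (29.3 to 35.8) in remaining tissue, where ppm counts reads among 1000000 nuclear reads. On this scale both libraries of isolated mitochondria lay above both of remaining tissue, although the interval of replicate 1 holds both tissue values. Pooled over libraries, the share in remaining tissue was 0.325 times that in isolated mitochondria (exact 95% interval 0.213 to 0.522, counting error only), with the spread between libraries left out.

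Des encodes desmin, the muscle intermediate filament around the Z-disc, and was second to Actn3 by normalized count in remaining tissue. Its position is chromosome 1, 75360329 to 75368579 on the plus strand. Its counts were 4563 and 4300 in remaining tissue and 2081 and 2044 in isolated mitochondria, from 230 and 404 reads. Both groups were tight, and Des fell to 46.5% (log2 fold change -1.10, SE 0.16, adjusted p = 0.0248). The call was lost without remaining tissue replicate 1 (log2 fold change -1.06) or replicate 2 (-1.15) and with nuclear scaling (log2 fold change -0.21, adjusted p = 0.402). Of its exons 220 nt (5.86%) overlap the antisense gene Gm15179, and with the strand setting of the counting not stated reads there are uncertain. Gm15179 itself had 0 to 18 normalized counts. The ratio of Des to Actn3 was 0.491 and 0.436 in remaining tissue and 0.946 and 1.15 in isolated mitochondria. By normalized count, desmin transcript there lay just below fast alpha-actinin transcript in replicate 1 and above it in replicate 2. The ratio was not tested.

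**Figure D2:**
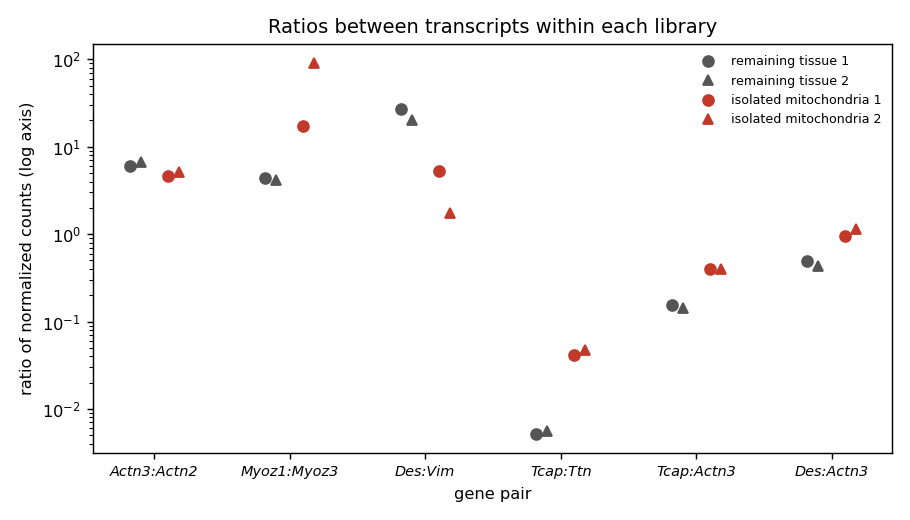
Ratios of normalized counts (log axis) between pairs of transcripts within each library, which do not depend on the scaling of libraries; grey marks stand for remaining tissue, red marks for isolated mitochondria, circles for replicate 1 and triangles for replicate 2. Ratios of Tcap to Ttn, Tcap to Actn3 and Des to Actn3 are higher in isolated mitochondria, and the ratio of Des to Vim is lower. Only pairs whose groups lie apart are drawn. The ratio of Csrp3 to Csrp1 was 0.886 and 1.67 in remaining tissue and 0.8 and 1.49 in isolated mitochondria. That ratio and the ratio of Myoz1 to Myoz2 overlapped between groups and are not drawn.

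Ordered per kb of exon, the members had nearly the same sequence in both groups, with exchanges at the top and the bottom. Myot and Myoz1, which overlapped in both groups, also changed places. In remaining tissue the order was Actn3 (3302 ± 138 normalized counts per kb), Tcap (1509 ± 23.1), Des (1181 ± 49.5), Myot (682 ± 73.9), Myoz1 (674 ± 0.374), Actn2 (400.0 ± 11.9), Ldb3 (286 ± 2.32), Myoz3 (86.3 ± 2.26), Myoz2 (21.9 ± 1.24) and Csrp3 (16.1 ± 6.35; SD, n = 2 each). Myot and Myoz1 overlapped, and Myoz2 and Csrp3 differed by less than the SD of Csrp3, while other neighbours in this order lay apart. In isolated mitochondria Tcap came first (841 ± 134 per kb), ahead of Actn3 (685 ± 103) and Des (549 ± 6.97). The ranges of Tcap and Actn3 overlapped, but Tcap ranked first within each of both libraries, with 936 against 758 per kb in replicate 1 and 747 against 612 in replicate 2. Myoz1 (286 ± 61.3) and Myot (234 ± 110.0) overlapped, and so did Csrp3 (23.8 ± 14.6) with Myoz2 (13.6 ± 8.06) and Myoz2 with Myoz3 (5.97 ± 6.38). Myoz3, eighth in remaining tissue, was last in isolated mitochondria. With the longest transcript in place of the union of exons Tcap still ranked first in both libraries of isolated mitochondria and Actn3 first in both of remaining tissue.

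**Figure D3:**
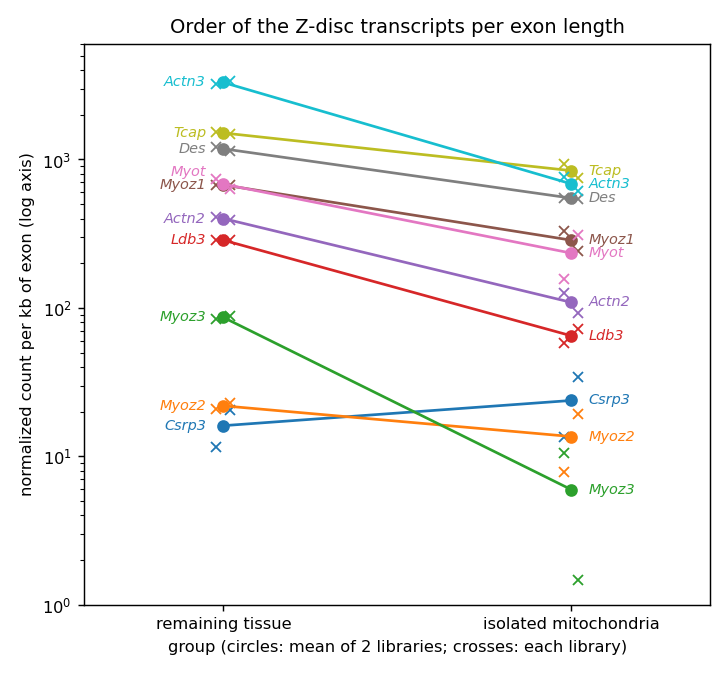
Level per kb of exon (normalized counts per kb, log axis) of each member in remaining tissue and isolated mitochondria; circles joined by lines are means of 2 libraries and crosses are single libraries. Lines run down for 9 of 10 genes with the deposited scaling, most steeply for Myoz3, and Tcap passes above Actn3.

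The 26 further genes of the Z-disc and its rim (Z-disc partners), which include the giant filament proteins anchored there, gave a like picture. Of 26 tested, 14 were called lower, beside 9.30% of all genes tested, 0 were called higher and 12 did not pass. By edgeR and by DESeq2 17 were called lower, beside 17.6% and 19.2% of all genes tested, and 0 higher. The median log2 fold change was -1.89 for the partners and -0.44 for all genes tested. Ttn, the gene of titin, and Neb, the gene of the thin filament ruler nebulin, had the largest changes in this list. Ttn had 280729 and 251732 normalized counts in remaining tissue, against 21482 and 15091 in isolated mitochondria (log2 fold change -3.88, SE 0.28, adjusted p = 0.00849). Neb had 45852 and 43724 in remaining tissue and 3212 and 3319 in isolated mitochondria (-3.78, SE 0.17, adjusted p = 0.00317). Both giants thus had fold changes larger in size than those of the members that passed. The other abundant partners called lower were the Xin repeat protein gene Xirp2 (log2 fold change -3.21), the cytolinker gene Plec (-2.79), the nebulin-related Nrap (-2.72), Synm (-2.43), whose product pairs with desmin, Synpo2 (-2.17) and the filamin gene Flnc (-2.07). Among less abundant partners called lower were Synpo2l (-2.56), Mypn (-2.28), whose product myopalladin links nebulin to alpha-actinin, and Klhl41 (-2.25), a kelch protein gene of nemaline myopathy. The adjusted p-values of these 9 genes ran from 0.0078 to 0.0391. Ankrd2, named after its values were seen, was the partner with a fold change above 0 (85 and 103 normalized counts in remaining tissue against 136 and 101 in isolated mitochondria, log2 fold change 0.32, SE 0.27, adjusted p = 0.43), and its groups overlapped.

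**Figure D4:**
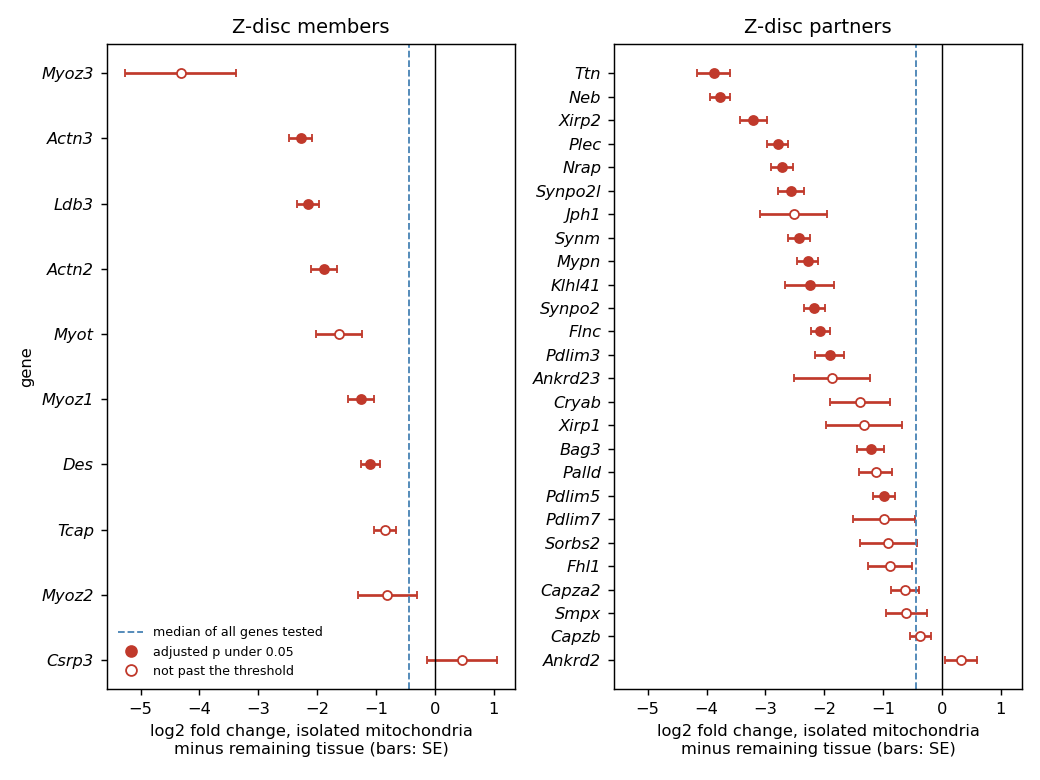
Log2 fold change (isolated mitochondria minus remaining tissue, limma, bars show SE) of the 10 members at left and the 26 partners at right; filled marks passed an adjusted p of 0.05, and the dashed line is the median of all genes tested, -0.44. With the deposited scaling 9 members lie left of that line and Csrp3 right of 0; with nuclear scaling Tcap (0.04) and Myoz2 (0.09) move right of 0, and with scaling to all genes Csrp3 (-6.44) moves left of it.

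Other sarcomere lists moved in the same direction as the members, where 9.30% of all genes tested were called lower. Of 14 thick and thin filament genes 12 were called lower and 0 higher (median -1.87), and the most abundant, the fast myosin gene Myh4, had 130847 and 139440 normalized counts in remaining tissue, against 15166 and 11712 in isolated mitochondria (-3.34, SE 0.24, adjusted p = 0.0084). Of 6 M-band genes 3 were called lower and 0 higher (median -2.66). Lower levels were thus shared by lists of the whole sarcomere, and no test set the Z-disc apart from them.

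Paralogues of the members that are not confined to muscle did not pass the test. Of 9 such genes 6 reached the filter, of which 0 were called in either direction by limma and 1 (Vim) had an unadjusted p under 0.05, and their median log2 fold change was 0.08. By edgeR and by DESeq2 1 of the 6, again Vim, was called higher and 0 lower. The non-muscle alpha-actinin gene Actn4 had 99 and 112 normalized counts in remaining tissue, against 81 and 121 in isolated mitochondria (-0.09, SE 0.30, adjusted p = 0.844), and Actn1 had 25 and 25 against 45 and 20 (0.26, SE 0.52, adjusted p = 0.741). Csrp1 had 35 and 33 against 45 and 61 (0.61, SE 0.31, adjusted p = 0.23), and Pdlim1 had 23 and 34 against 9 and 40 (-0.52, SE 0.83, adjusted p = 0.674). Nes, the gene of the intermediate filament protein nestin, had 112 and 127 against 0 and 76, where 0 stands for no read and 76 for 15 (-3.78, SE 2.2, adjusted p = 0.28).

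Vim, which encodes the intermediate filament protein vimentin of connective tissue and other non-muscle cells, gave the largest fold change above 0 among the tested paralogues. It had 168 and 210 normalized counts in remaining tissue, against 398 and 1159 in isolated mitochondria (log2 fold change 1.85, SE 0.57, adjusted p = 0.101), both higher than in tissue but far apart from each other. The ratio of Des to Vim was 27.2 and 20.5 in remaining tissue and 5.23 and 1.76 in isolated mitochondria, a mean 6.81 times lower. In the same libraries all 4 fibroblast markers (Col1a1, Col3a1, Dcn and Pdgfra) were called higher in isolated mitochondria, with summed levels of 1198 and 1313 normalized counts in remaining tissue, against 7818 and 14570 in isolated mitochondria, and the macrophage marker Csf1r was called higher. Adgre1, another macrophage marker, had 6 and 6 normalized counts in remaining tissue against 36 and 71 in isolated mitochondria and reached the filter only through the latter, so its values are given without the test. Of the other markers, 0 of 4 smooth muscle markers tested passed in either direction (0 at an unadjusted p under 0.05, and 0 by edgeR or DESeq2; summed levels 326 to 370 in remaining tissue and 212 to 345 in isolated mitochondria), 1 of 4 endothelial markers was called lower by limma and 3 of 4 by edgeR and by DESeq2 (412 to 417 against 72 to 126), and the 1 Schwann cell marker tested did not pass (55 to 73 against 54 to 60 for the list). Cnn1 of smooth muscle was listed at 0 in both libraries of isolated mitochondria. The part of these other cell types in the ratio of Des to Vim was not tested.

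**Figure D5:**
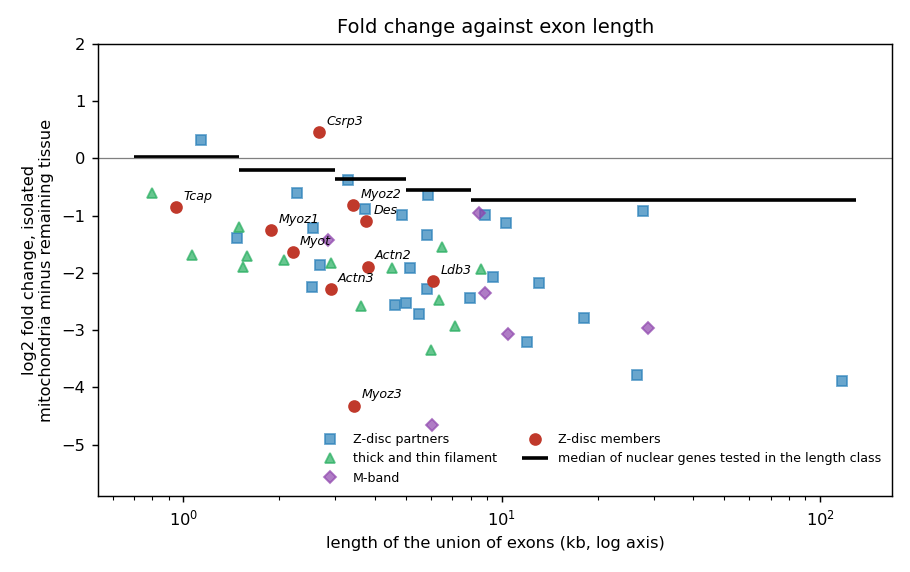
Log2 fold change (isolated mitochondria minus remaining tissue, deposited scaling) against the length of the union of exons (kb, log axis) of members, partners, thick and thin filament and M-band genes; black bars are medians of nuclear genes tested in 5 length classes. Medians of all genes run from 0.02 in the shortest to -0.72 in the longest class, and sarcomere genes lie mostly below the bar of their class.

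Fold changes moved with the length of the transcript and with its level in remaining tissue. Across all 6861 nuclear genes tested with a known length, Spearman's rho between exon length and log2 fold change was -0.17, across the 56 genes of the 4 sarcomere lists it was -0.49, and across the 10 members it was -0.42 (-0.38 over the 9 without Myoz3, and -0.56 over the 10 with the length of the longest transcript). With the level in remaining tissue in place of length, rho was -0.55 across all nuclear genes, -0.51 across the sarcomere lists, -0.52 across the members and -0.80 over the 9 without Myoz3, where the level in remaining tissue is itself a term of the fold change. These points share the same 4 libraries and the coefficients are given as a description. Among all nuclear genes the median log2 fold change was 0.02 for 670 genes with under 1500 nt of exons, -0.21 for 1095 genes from 1500 to under 3000 nt, -0.36 for 1642 genes up to 5000 nt, -0.56 for 1769 genes up to 8000 nt and -0.72 for 1685 longer genes. Tcap, in the first class, was at -0.85 where its class stood at 0.02, and Ldb3, in the fourth, was at -2.15 where its class stood at -0.56. Of the members, 9 of 10 lay below the median of their own length class, with Csrp3 as the exception. Within the sarcomere lists the class medians went from -1.02 for 6 genes under 1500 nt to -2.35 for 12 genes of 5000 to 8000 nt and -2.26 for 14 longer genes. The part of fragmentation time, which was adjusted for mitochondrial libraries, in the relation with length was not tested.

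The 5 other nuclear genes whose pattern over the 4 libraries was nearest to the mean pattern of the members (Euclidean distance of centred log2 values, 6852 candidates) were Parp1 (distance 0.05), Klhl40 (0.06), Atp5o (0.067), Ccng1 (0.086) and Hcfc1 (0.086). Their log2 fold changes lay between -1.66 and -1.53, and each was called lower. Both follow from the pick, which favours genes near the members' mean pattern whose replicates lie close together. Parp1, for example, had 109 and 109 normalized counts in remaining tissue, against 36 and 35 in isolated mitochondria. A single read was worth 9.049 and 5.059 normalized counts in the latter, so these values stand for few reads. Of these 5, Klhl40 encodes a kelch protein of the sarcomere that binds nebulin, and the others encode a nuclear enzyme (Parp1), a subunit of ATP synthase (Atp5o), a cyclin (Ccng1) and a transcriptional cofactor (Hcfc1).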

How the data were processed

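RNA from skeletal muscle of WT mice was sequenced with a stranded low-input kit as single reads of 75 nt. According to the methods, the authors used Trimmomatic for trimming, STAR for alignment to GRCm38 and featureCounts for counting over exons, where reads with several target genes or several alignments were dropped. The submitters' processing notes name Trimmomatic 0.39, STAR 2.7.10a, featureCounts 2.0.2 and DESeq2 1.30.1, and the methods name other versions in part. The deposited signal is gene counts that the authors divided by a size factor per library and rounded to whole numbers, called normalized counts here. Values under 2000 in isolated mitochondria were whole multiples, within 0.5, of 1 step per library (99.95% of 10508 and 99.97% of 11660 values), which gave whole reads. In remaining tissue 1 normalized count stood for an estimated 7.05 reads. Depths are given in the report.

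Members and gene lists were chosen with earlier results of these data known. The test was limma 3.58.1 (trend, R 4.3.3) on log2 of the normalized count plus a pseudocount of 1, for genes whose mean reached 20, two-sided, no covariate, Benjamini-Hochberg adjustment over 6916 genes. Fold changes are differences between group means on that scale, so that 1 library with few or no reads weighs heavily in a low gene. edgeR 4.0.16 and DESeq2 1.42.0 were run as alternatives on recovered reads of isolated mitochondria and estimated reads of remaining tissue. Both libraries of remaining tissue were given the same estimated size factor. edgeR called 1217 genes lower and 940 higher, against 643 and 506 by limma. Scripts were tested on simulated data. Lengths and coordinates are of GENCODE M21, in which 16457 of 16472 identifiers were found, and nuclear copies of mitochondrial genes (17) and near-identical stretches were found with BLAST 2.17.0. Named genes were all members, the 8 most abundant partners and the 3 other called partners with the largest change, all tested paralogues, the most abundant gene of the filament and M-band lists (that of the M-band is not reported here), and the 5 genes nearest in pattern.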

Additional observations from a re-analysis of the deposited data

How the results depend on the processing

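The count of members called lower, 5, ran from 4 to 6 with other pseudocounts, other filters and the upper quartile. In those settings 3.37% to 18.4% of all genes tested were called lower. The count was 7 with edgeR and TMM, beside 12.6% of all genes tested. It was 2 with nuclear scaling, 10 with scaling to all genes, 8 with edgeR and 8 with DESeq2, and 4 to 9 when 1 library was left out. The partners called lower, 14, were 26 with scaling to all genes, 10 with nuclear scaling, 11 with a filter at a mean of 5 and 12 to 23 with 1 library left out. Counts of members or partners called with 1 library left out are not given, because the lone library is then assumed to vary like the other group. Tallies over the 15 alternatives include these fits. No member or partner was called higher under any of the 15 alternatives. Signs changed for Tcap (0.04) and Myoz2 (0.09) with nuclear scaling and for Csrp3 with scaling to all genes (-6.44) and without isolated mitochondria replicate 2 (-0.19, within -0.19 to 1.12 over the libraries left out). The cause was not tested, except that a scaling shifts all genes alike.

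With the replicate number as a block (replicate block), 8 members and 18 partners were called lower, beside 16.5% of all genes tested. The labels do not say what the numbers stand for, deviations of same-numbered libraries correlated by 0.141, and with 2 pairs the numbers are not taken to pair the libraries.

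Depth limits Myoz3, Myoz2 and Csrp3, which had 5, 16 and 22 reads in isolated mitochondria in all. Replicates correlated across genes with Pearson coefficients of 0.983 in remaining tissue and 0.709 in isolated mitochondria (genes are not independent replicates).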
